A study of Mus musculus with 48 samples.

Results

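Glycolysis and the response to low oxygen were followed here through 34 genes in GL261 glioblastoma, a mouse brain tumor grown from a cell line. The genes were taken by symbol from a list of glucose and lactate transporters, glycolytic enzymes, regulators of their flux, the oxygen-sensing factor Hif1a with its hydroxylases, and other genes known to be induced by hypoxia. All 34 were in both deposited count tables, as 34 of 20300 genes in the table of mixed cells and 34 of 14363 in the table of CD11b-positive cells. Each gene was followed in tumor cells, macrophages, microglia, neutrophils and T cells, as told apart by marker genes.

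The study compared GL261 tumors that carry an shRNA against P-selectin (shSELP), a cell adhesion protein, with tumors that carry a negative control shRNA (shNC). Cells were injected into the striatum of male C57BL/6 mice of 6 weeks, and single-cell 3′ RNA libraries were made from pools of 3 brains. The shRNA is in the injected tumor cells, and the host mice of both groups are of the same strain. For 4 libraries, 2 of each group and called mix here, CD11b-positive cells, CD45-positive cells and cancer cells were combined in equal amounts on day 16 after injection, per the labels. For 2 further libraries, 1 of each group, CD11b-positive cells alone were isolated, on day 21 per the labels. The study's methods give another day of isolation than these labels do. Mixing sets the shares of these fractions at the bench, so the number of cells of a type in a mix library is not its share of the tumor. The study's methods describe, for each group of mice, a pool of 3 brains. Whether a group's 2 libraries come from that pool or from separate pools is not stated in the labels. The tests below therefore measure spread between libraries that may be technical, and animals cannot be told apart within a pool. Of the 8 sequencing entries of the CD11b shSELP library, 7 have a description line that names the negative control, while their titles, sources and genotypes name the knockdown. They were used as shSELP.

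The mix libraries held 2289, 2297, 2293 and 2293 cells and 22945972, 22626413, 17398121 and 25589350 UMIs (transcripts counted once by molecular barcode), in the order shNC 1, shNC 2, shSELP 1 and shSELP 2, which is the order of every list of 4 values that follows. Their median depths were 9015, 7579, 5887 and 9388 UMIs per cell. The CD11b libraries, shNC 1 and shSELP 2, held 2862 and 2862 cells and 12628177 and 11445676 UMIs, with medians of 4032 and 3685 per cell. More than 1 mix library held the same cell barcode for 5 barcodes, and both CD11b libraries did for 3.

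Selp, the gene targeted by the shRNA, was at or near 0 in the tumor cells of each mix library, and the CD11b libraries held no tumor cells. Tumor cells held 1, 1, 0 and 1 UMIs of Selp. Macrophages held 3, 2, 2 and 7 UMIs in the mix libraries, the highest counts of the 5 classes, though not the highest share of a class's UMIs in every library. Tumor counts at or under 3 cannot show a knockdown, so the grouping follows the labels alone.

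Cells were sorted into classes by their highest marker score. That each class held its own markers at the highest level follows from this rule. The marker medians below describe the gate and do not test the class names. Tumor cells numbered 332, 239, 92 and 137 and macrophages 939, 805, 551 and 828 in the mix libraries. Microglia numbered 103, 144, 308 and 173, neutrophils 6, 9, 25 and 17 and T cells 444, 445, 409 and 462. In median UMIs per 10000 of a cell, tumor cells had 25.5 of the tumor markers, against 0 in each of the other 4 classes. Macrophage markers stood at 139.7 in macrophages and 7.41 in microglia, and microglia markers at 72.6 in microglia against 6.38 in macrophages. Mix neutrophils had 38.8 of the macrophage markers beside 845 of their own, and mix tumor cells 7.56 of the microglia markers. The CD11b microglia stood less apart, with 45.4 of their own markers and 14.6 of the macrophage markers. The CD11b libraries gave 2163 and 2341 macrophages and 244 and 219 microglia, and no cell of the tumor gate.

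Glycolysis splits glucose, taken up through carriers such as Slc2a1, into pyruvate, and lactate dehydrogenase turns pyruvate into lactate that leaves the cell through monocarboxylate carriers. When oxygen is low, the hydroxylases Egln1 and Egln3 no longer mark Hif1a for breakdown, and the stabilized factor turns on many glycolytic genes together with its own regulators. Glioblastomas are known for poorly perfused, oxygen-poor areas, in which macrophages gather.

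In macrophages, the largest myeloid class, no member was called between shSELP and shNC tumors. The comparison asks whether the genes differ in host cells when the tumor cells carry the shRNA. Levels are given as CPM, the UMIs of a gene per 1000000 UMIs of all cells of a class in a library. Of 33 members tested in macrophages, edgeR called 0, beside 0.154% of 11017 genes, with 5 members and 1416 of all genes at an unadjusted p under 0.05 and 0 members called by DESeq2. Over the members the median log2 fold change was 0.09, and over all genes tested -0.01. The member median was 0.21 without shNC 1, -0.06 without shNC 2, 0.23 without shSELP 1 and -0.09 without shSELP 2, so its sign turned when shNC 2 or shSELP 2 was left out. The libraries of the groups did not overlap, with shSELP higher, for 5 of 34 members and 15.8% of all genes, and with shSELP lower for 4 members and 28.5% of all genes. The count was 0 with each library left out in turn and with each other alternative run. Median depth was 10916, 10270, 10155 and 15619 UMIs, and cycling cells numbered 254, 209, 116 and 258.

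Among the glucose and lactate carriers, Slc2a1, the glucose transporter that hypoxia induces, was at 164, 144, 143 and 197 CPM in macrophages. Slc16a3, the carrier that exports lactate, was at 141, 132, 148 and 214 CPM. For Slc16a3 both shSELP values lay above both shNC values, and for Slc2a1 the groups overlapped. Slc16a3 was highest in shSELP 2, and its log2 fold change 0.46 ± 0.18 (SE), adjusted p = 0.343 by edgeR, did not pass. Slc16a1, a carrier of lactate and pyruvate, had few UMIs, 64, 45, 37 and 62 UMIs.

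The hexokinases trap glucose in the cell. Hk1 was at 22.6, 25.9, 23.3 and 26.6 CPM in macrophages. Hk2, the form that hypoxia induces, was at 78.0, 71.2, 81.0 and 82.8 CPM, and Hk3, the form found in myeloid cells, at 106, 121, 108 and 141 CPM. For Hk2 both shSELP values lay above both shNC values, and for Hk1 and Hk3 the groups overlapped. For Hk2 the gap between the groups was narrow, and edgeR gave it an adjusted p of 0.543.

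Further down the pathway, Gapdh, Pgk1 and Ldha differed more within a group than between the groups. Gapdh was at 1046, 925, 932 and 1259 CPM and Pgk1, phosphoglycerate kinase, at 576, 457, 430.2 and 600.3 CPM. Ldha, which makes lactate, was at 879, 765, 589.6 and 787 CPM. For Gapdh, Pgk1 and Ldha the groups overlapped. The remaining enzymes Gpi1, Pfkl, Pfkp, Aldoa, Tpi1, Pgam1, Eno1 and Pkm had log2 fold changes from -0.04 for Pgam1 to 0.44 for Pfkl and none was called by edgeR. Several of these enzymes have processed pseudogenes and Eno1 has a near-identical copy, Eno1b, listed apart, so reads can be lost to or gained from the copies and their levels are uncertain. Eno1b itself held 20, 18, 16 and 44 UMIs in macrophages, against 918, 745, 347 and 1348 UMIs of Eno1.

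Of the flux regulators, Pdk1, the kinase that keeps pyruvate out of the mitochondrial cycle, was at 15.5, 13.2, 10.1 and 17.6 CPM in macrophages. Pfkfb3, which makes the activator of phosphofructokinase, had the lowest p of the members and is named after its values were seen. It was at 33.9, 32.9, 21.9 and 24.6 CPM, with a log2 fold change -0.46 ± 0.12 (SE), adjusted p = 0.21 by edgeR. For Pfkfb3 both shSELP values lay below both shNC values, and for Pdk1 the groups overlapped.

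Hif1a RNA was at 251, 262, 299 and 312 CPM in macrophages. Its log2 fold change 0.30 ± 0.0931 (SE), adjusted p = 0.254 by edgeR, did not pass. Hif1a is regulated mainly through breakdown of its protein, which these data do not measure. Egln3, a hydroxylase that marks Hif1a, was at 23.3, 15.2, 18.7 and 31.6 CPM. For Hif1a both shSELP values lay above both shNC values, and for Egln3 the groups overlapped.

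In the group of other hypoxia-induced genes, Bnip3, which marks mitochondria for removal, was at 121, 69.8, 75.3 and 119.6 CPM in macrophages. Mif, a secreted inflammatory mediator, was at 1038, 838, 743 and 995 CPM. Ddit4, an inhibitor of growth signalling, was at 14.2, 13.6, 10.9 and 13.3 CPM. For Ddit4 both shSELP values lay below both shNC values, and for Bnip3 and Mif the groups overlapped. Adm, the vasodilator adrenomedullin, held 32, 8, 5 and 2 UMIs, too few to compare in shSELP 2. The members Egln1, Bnip3l, Ndrg1, P4ha1, P4ha2, Ankrd37, Higd1a and Kdm3a had log2 fold changes from -0.32 for Ankrd37 to 0.30 for Kdm3a and were not called by edgeR.

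Of 28 other pathway genes tested in macrophages, edgeR called 0, with 4 at an unadjusted p under 0.05. Handling stress genes, induced when tissue is taken apart, gave 0 calls among 10 by edgeR, with 1 at an unadjusted p under 0.05. They summed to 3487, 3344, 3344 and 3559.7 CPM, with Junb the most abundant gene.

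Most members were lower in microglia, the resident macrophages of the brain, than in the gated macrophages of the same mix libraries. The contrast uses the 4 mix libraries with the library as a block, so each library is its own control. The CD11b libraries are not in it. By CPM, more members were higher than lower in microglia in CD11b shNC 1, and fewer in CD11b shSELP 2. Gapdh and Mif were higher in microglia in both CD11b libraries, while Ldha and Hk1 were lower in both. Of 34 members tested, edgeR called 3 higher and 21 lower in microglia, beside 16.7% and 16.7% of all genes. Pfkfb3, Hk2 and Kdm3a were those that rose, and Ndrg1, Pfkp, Hk1 and the carrier Slc16a3 fell most. With 1 library left out, the number called was 23 without shNC 1, 24 without shNC 2, 19 without shSELP 1 and 16 without shSELP 2. In the same order, 3421 of 11450, 3127 of 11494, 2989 of 11869 and 2952 of 11693 genes were called. Scaling moved all genes together, and with DESeq2 the median over all genes was 0.20 and with library totals 0.15, against 0.01 in edgeR. DESeq2 called 4 members higher and 14 lower, and with library totals edgeR called 5 members higher and 17 lower. Over all genes, in either direction, DESeq2 called 3875 of 11483 and edgeR with library totals 3958. The member median was -0.63, and -1.52 with the microglia of their largest cluster alone, a setting chosen after seeing the data, in which edgeR called 5 members higher and 23 lower beside 4482 of 11122 genes. Of 30 other pathway genes tested, edgeR called 2 higher and 11 lower, and of 10 handling stress genes 4 higher and 0 lower.

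Pfkfb3 was at 112, 100.1, 133 and 123 CPM in microglia. Each microglia value lay above each macrophage value, with a log2 fold change 1.92 ± 0.19 (SE), adjusted p = 4.52e-09 by edgeR. Hk2 was at 113, 129, 146 and 185 CPM and also lay above every macrophage value, with a log2 fold change 0.74 ± 0.15 (SE), adjusted p = 0.000318 by edgeR. Kdm3a, a histone demethylase that hypoxia induces, was at 28.8, 20.3, 34.8 and 25.9 CPM in microglia and 12.4, 17, 16.4 and 18.1 CPM in macrophages. The ranges did not overlap, with a log2 fold change 0.65 ± 0.22 (SE), adjusted p = 0.0236 by edgeR. Kdm3a was not called without shNC 1 or shSELP 1, and its log2 fold change with 1 library left out lay between 0.50 and 0.79.

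Among the members that fell, Ndrg1, a stress-responsive gene that hypoxia induces, was at 13.4, 2.20, 7.32 and 1.81 CPM in microglia and 78.0, 61.7, 53.0 and 58.5 CPM in macrophages. Each microglia value was far under each macrophage value, with a log2 fold change -3.56 ± 0.33 (SE), adjusted p = 2.5e-09 by edgeR. Pfkp, a form of phosphofructokinase, was at 51.4, 69.3, 27.9 and 54.2 CPM in microglia and 154, 165, 145 and 168 CPM in macrophages. It too lay lower in every library, with a log2 fold change -1.82 ± 0.21 (SE), adjusted p = 8.45e-08 by edgeR. Hk1 was at 7.2, 8.80, 8.71 and 12 CPM, lower than in macrophages in 4 of 4 libraries, with a log2 fold change -1.52 ± 0.22 (SE), adjusted p = 4.52e-06 by edgeR. Slc16a3 was at 69.9, 75.3, 46.0 and 62.6 CPM, also lower in 4 of 4, with a log2 fold change -1.47 ± 0.31 (SE), adjusted p = 0.00047 by edgeR.

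Between shSELP and shNC microglia most glycolytic enzymes had negative folds, also with DESeq2 and with library totals, and 2 members were called. Of 31 members tested in microglia, edgeR called 2, beside 1.63% of 8407 genes, with 12 members and 1430 of all genes at an unadjusted p under 0.05 and 2 members called by DESeq2 (Ldha and Mif). Over all genes DESeq2 called 80 of 8407. Over the members the median log2 fold change was -0.31, and over all genes tested 0.01. The member median was -0.17 without shNC 1, -0.44 without shNC 2, -0.19 without shSELP 1 and -0.20 without shSELP 2. The libraries of the groups did not overlap, with shSELP higher, for 5 of 33 members and 28.7% of all genes, and with shSELP lower for 12 members and 17.9% of all genes. Leaving out libraries moved the count: the number called was 3 without shNC 1, 1 without shNC 2, 1 without shSELP 1 and 11 without shSELP 2. The count over all genes moved as well, to 789 of 9082 genes without shSELP 2, 325 of 9049 genes without shNC 1, 115 of 8879 genes without shNC 2 and 286 of 8801 genes without shSELP 1. Both called members, Eno1 and Mif, were lower in shSELP, and with the replicate number as a block Mif alone was called, beside 159 of 8407 genes. The number of members called was 0 with cells thinned to 2000 UMIs, beside 12 of 3241 genes, and 0 with classes by cluster, beside 28 of 8940 genes. It was 6 without the filter on low counts, beside 517 of 15468 genes, and 1 (Mif) with library totals, beside 169 of 8407 genes. The gated cells fell into clusters in unequal shares, and the largest held 42.7, 31.2, 73.1 and 44.5% of them. With that cluster alone, a setting chosen after seeing the data, edgeR called 0 of 26 members and 4 of 6099 genes, with 8 members at an unadjusted p under 0.05 and a member median of -0.33. DESeq2 was not run on that cluster.

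Eno1, the enolase, was at 68.9, 62.7, 30.3 and 42.8 CPM in microglia. Both shSELP values were below both shNC values, and Eno1 fell, with a log2 fold change -0.93 ± 0.21 (SE), adjusted p = 0.0454 by edgeR. Eno1 was not called without shSELP 1, and its log2 fold change with 1 library left out lay between -1.17 and -0.64. Mif was at 853, 856, 469 and 622 CPM, again with both shSELP values below both shNC values and a log2 fold change -0.71 ± 0.16 (SE), adjusted p = 0.045 by edgeR. Mif was not called without shNC 2, and its log2 fold change with 1 library left out lay between -0.94 and -0.50. Ldha was at 592, 586, 351 and 445 CPM and was not called (edgeR adjusted p = 0.0558). Gapdh was at 721, 864, 592 and 703 CPM and Pgk1 at 344, 323, 222 and 301 CPM. For Ldha, Gapdh and Pgk1 both shSELP values lay below both shNC values. The near-identical copy Eno1b held 2, 6, 3 and 2 UMIs in microglia, against 67, 114, 87 and 71 UMIs of Eno1.

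The carriers Slc2a1 and Slc16a3 were at 105, 75.3, 91.3 and 69.3 CPM and 69.9, 75.3, 46.0 and 62.6 CPM in microglia. For Slc16a3 both shSELP values lay below both shNC values, and for Slc2a1 the groups overlapped. The hexokinases gave 7.2, 8.80, 8.71 and 12 CPM for Hk1, 113, 129, 146 and 185 CPM for Hk2 and 92.5, 122, 78.4 and 104 CPM for Hk3. For Hk2 both shSELP values lay above both shNC values, and for Hk1 and Hk3 the groups overlapped. Pdk1 was at 23.7, 20.3, 21.3 and 21.7 CPM, Hif1a at 227, 258, 235 and 254 CPM and Egln3 at 13.4, 10.4, 6.97 and 12 CPM. For Pdk1, Hif1a and Egln3 the groups overlapped. Among the hypoxia-induced genes Bnip3 was at 74.0, 56.1, 58.2 and 75.9 CPM and Ddit4 at 8.23, 4.95, 5.92 and 5.42 CPM, while Adm held 3, 0, 15 and 1 UMIs. For Bnip3, Ddit4 and Adm the groups overlapped.

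Handling stress genes were higher in shSELP microglia of the mix libraries. Of 10 tested in microglia, edgeR called 5 higher in shSELP, with log2 fold changes of 1.23 for Dnajb1, 1.03 for Jun, 1.01 for Egr1, 0.79 for Fosb and 0.76 for Atf3. The summed level of the list was 5664, 4216, 9317 and 7449 CPM, with Junb the most abundant gene and 10 of 10 genes detected in each library. In CD11b microglia most went the other way, with a median ratio of shSELP to shNC of 0.778 and 6 of 9 genes lower. Their part in the result was not tested. Macrophage markers summed to 1792, 1524, 1457 and 1109.9 CPM in the microglia gate, and cycling cells numbered 15, 39, 29 and 31. With cycling cells left out edgeR called 1 member (Mif), beside 70 of 7443 genes. Median depth was 6796, 10632, 7643 and 8267 UMIs. Of 22 other pathway genes, 0 were called by edgeR.

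T cells differed from macrophages in their carriers and hexokinases. Of 34 members tested, edgeR called 4 higher and 19 lower in T cells, beside 32% and 30.2% of all genes. With DESeq2 the median over all genes was 0.32 and with library totals 0.38, against 0.06 in edgeR. DESeq2 called 6 members higher and 14 lower, and with library totals edgeR called 6 members higher and 14 lower. Over all genes, in either direction, DESeq2 called 7426 of 11483 and edgeR with library totals 7875. With 1 library left out, the number called was 23 without shNC 1, 22 without shNC 2, 20 without shSELP 1 and 18 without shSELP 2. In the same order, 6501 of 11450, 6341 of 11494, 6846 of 11869 and 6372 of 11693 genes were called. Of 30 other pathway genes tested, edgeR called 5 higher and 15 lower, and of 10 handling stress genes 0 higher and 4 lower.

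Ddit4 was at 79.5, 78.6, 55.6 and 74.2 CPM in T cells. Every T cell value lay above every macrophage value, with a log2 fold change 2.14 ± 0.17 (SE), adjusted p = 2.54e-11 by edgeR. Slc16a1 was at 18.5, 13.7, 18.7 and 12.8 CPM and rose in 4 of 4 libraries, with a log2 fold change 1.24 ± 0.20 (SE), adjusted p = 4.06e-06 by edgeR. Hif1a was at 465, 489.6, 505 and 604 CPM, higher than in macrophages in each library, with a log2 fold change 0.55 ± 0.14 (SE), adjusted p = 0.00101 by edgeR. Hk1 was at 45.2, 40.6, 35.3 and 45.5 CPM, also higher in each, with a log2 fold change 0.43 ± 0.16 (SE), adjusted p = 0.0236 by edgeR. Hk1 was not called without shNC 1, shNC 2 or shSELP 2, and its log2 fold change with 1 library left out lay between 0.31 and 0.47.

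Hk3, Pfkfb4 and both Slc2a1 and Slc16a3 were low in T cells. Hk3, the myeloid hexokinase, had 3, 2, 5 and 4 UMIs in T cells, under 6 in each library, and its fold against macrophages rests on those few molecules. Pfkfb4 had 6, 5, 6 and 10 UMIs there. Slc2a1 was at 42.2, 41.2, 27.2 and 45.7 CPM and fell in 4 of 4 libraries against macrophages, with a log2 fold change -2.39 ± 0.30 (SE), adjusted p = 8.14e-08 by edgeR. Slc16a3 was at 50.4, 46.9, 16.7 and 37.3 CPM and fell too, with a log2 fold change -2.43 ± 0.31 (SE), adjusted p = 1.57e-07 by edgeR. Slc2a3, another glucose carrier and one of the other pathway genes, went the opposite way and was called higher in T cells by edgeR. It was also called higher than in macrophages in microglia, neutrophils and tumor cells.

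Between shSELP and shNC most members had a negative fold in T cells, and edgeR and DESeq2 differed by 1 call. Of 30 members tested in T cells, edgeR called 0, beside 0.0412% of 9718 genes, with 10 members and 940 of all genes at an unadjusted p under 0.05 and 1 member called by DESeq2 (Mif). Over all genes DESeq2 called 14 of 9718. Over the members the median log2 fold change was -0.20, and over all genes tested 0.00. The member median was -0.12 without shNC 1, -0.27 without shNC 2, -0.12 without shSELP 1 and -0.42 without shSELP 2. The libraries of the groups did not overlap, with shSELP higher, for 3 of 31 members and 20.6% of all genes, and with shSELP lower for 11 members and 20.2% of all genes. With shNC 2 left out edgeR called 7 members (Pgk1, Eno1, Tpi1, Ldha, Mif, Higd1a and Pgam1), together with 193 of 10113 genes in all, and with any other library left out 0 members. With no filter on low counts it called 1 (Mif) beside 18 of 16269 genes. Mif was at 1245, 840.4, 590.5 and 645 CPM in T cells, and its log2 fold change -0.75 ± 0.16 (SE), adjusted p = 0.183 by edgeR, did not pass. For Mif both shSELP values lay below both shNC values. Ldha was at 1348, 970.5, 698 and 906 CPM and Pgk1 at 763, 513, 327 and 520.4 CPM, with Gapdh at 1103, 855, 750.5 and 964 CPM. For Ldha both shSELP values lay below both shNC values, and for Pgk1 and Gapdh the groups overlapped. Hk2 was at 41.3, 32.6, 39.8 and 35.2 CPM and Pdk1 at 13.1, 14.3, 11 and 13.8 CPM. For Slc16a3 and Ddit4 both shSELP values lay below both shNC values, for Hif1a both shSELP values lay above both shNC values, and for Slc2a1, Hk2, Pdk1 and Hk1 the groups overlapped.

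In the hypoxia-induced group of T cells, Bnip3 was at 54.0, 25.7, 13.4 and 36.9 CPM and Egln3 at 10.9, 6.87, 8.53 and 9.33 CPM. For Bnip3 and Egln3 the groups overlapped. Adm held 0, 4, 3 and 1 UMIs, too few to compare. Handling stress genes summed to 2361, 2456, 2861 and 2806 CPM in T cells, with Junb the most abundant and 10 of 10 detected in each library, and 0 of 10 were called by edgeR. Their part in the result was not tested.

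**Figure D1:**
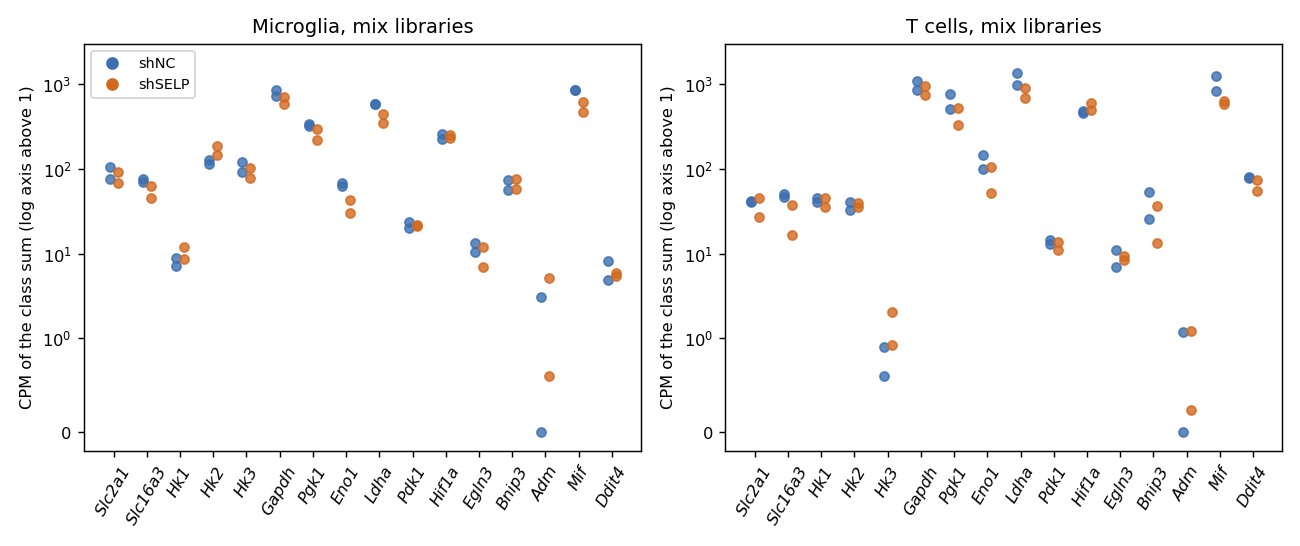
Level of 16 members in microglia (left) and T cells (right), as CPM on an axis that is logarithmic above 1, with 1 point for each mix library. Blue is shNC and orange shSELP. In microglia both orange points of Eno1, Ldha and Mif lie below both blue points.

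Neutrophils were few, so their values are coarse. Of 34 members tested, edgeR called 0 higher and 15 lower in neutrophils, beside 3.68% and 17.1% of all genes. The median log2 fold change of all genes was -1.19, far from 0, and every fold of this contrast carries that shift. In this contrast with DESeq2 the median over all genes was 0.14 and with library totals -0.66, against -1.19 in edgeR. With 1 library left out, the number called was 16 without shNC 1, 14 without shNC 2, 15 without shSELP 1 and 10 without shSELP 2. In the same order, 2017 of 11450, 1827 of 11494, 1574 of 11869 and 1452 of 11693 genes were called. Tpi1, an enzyme of the middle of the pathway, had 2, 4, 9 and 6 UMIs and fell, with a log2 fold change -2.83 ± 0.34 (SE), adjusted p = 8.02e-07 by edgeR. Pfkl, P4ha1 and Hk2 were also called lower, each on 0, 0, 1 and 0 UMIs, 0, 1, 1 and 0 UMIs and 0, 1, 0 and 2 UMIs in turn, and no fold is given for them. P4ha1 was not called without shSELP 2. DESeq2 called 1 member higher and 12 lower, and with library totals edgeR called 1 member higher and 8 lower. The member called higher in both was Slc16a3. Over all genes, in either direction, DESeq2 called 2821 of 11483 and edgeR with library totals 1447. Of 30 other pathway genes tested, edgeR called 1 higher and 6 lower, and of 10 handling stress genes 1 higher and 2 lower.

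Between shSELP and shNC, neutrophils could hardly be compared. Of 9 members tested in neutrophils, edgeR called 0, beside 0% of 596 genes, with 0 members and 15 of all genes at an unadjusted p under 0.05 and 0 members called by DESeq2. Over the members the median log2 fold change was 0.28, and over all genes tested -0.01. The member median was 0.45 without shNC 1, -0.39 without shNC 2, -0.09 without shSELP 1 and 0.43 without shSELP 2, so its sign turned when shNC 2 or shSELP 1 was left out. Mif held 8, 14, 13 and 22 UMIs, Ldha 9, 17, 27 and 18 UMIs and Gapdh 9, 6, 43 and 26 UMIs. Of the other members with values in every library, Pgk1 had 5, 4, 29 and 23 UMIs. Slc2a1 had 3, 3, 13 and 2 UMIs and Hif1a 5, 4, 16 and 9 UMIs, while Hk1 had 3, 0, 2 and 5 UMIs. Slc16a3 had 3, 8, 55 and 19 UMIs. The libraries of the groups did not overlap, with shSELP higher, for 0 of 13 members and 13.7% of 1131 genes. With shSELP lower this held for 4 members (Ldha, Mif, Pkm and Tpi1) and 15.6% of these genes, on few UMIs. Hk3 had 0, 1, 8 and 8 UMIs, Bnip3 2, 2, 3 and 2 UMIs, Egln3 1, 0, 2 and 4 UMIs, Pdk1 0, 0, 2 and 1 UMIs, Ddit4 0, 1, 2 and 1 UMIs and Adm 0, 0, 0 and 0 UMIs. The 95% exact interval of a count of 0 reaches 286, 159.9, 42.8 and 62.2 CPM.

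Between tumor cells and macrophages edgeR called most members and most genes. Of 34 members tested, edgeR called 5 higher and 23 lower in tumor cells, beside 37.6% and 35.1% of all genes. In edgeR a smaller share of the members than of all genes was higher, and a larger share was lower. Scaling mattered here: with DESeq2 the median over all genes was 0.81 and with library totals 0.73, against 0.04 in edgeR. DESeq2 called 7 members higher and 14 lower, and with library totals edgeR called 7 members higher and 15 lower. Over all genes, in either direction, DESeq2 called 9180 of 11483 and edgeR with library totals 9191. Gapdh and Hk1 were called lower by edgeR and had positive folds with DESeq2. Pdk1 was called lower by edgeR as well and had a positive fold with cells thinned to 2000 UMIs. Pdk1 was not called without shNC 2, shSELP 1 or shSELP 2, and its log2 fold change with 1 library left out lay between -1.43 and -0.47. With 1 library left out, the number called was 32 without shNC 1, 25 without shNC 2, 27 without shSELP 1 and 28 without shSELP 2. In the same order, 7669 of 11450, 7500 of 11494, 8279 of 11869 and 7998 of 11693 genes were called. Of 30 other pathway genes tested, edgeR called 12 higher and 14 lower, and of 10 handling stress genes 6 higher and 2 lower.

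Ddit4 was at 151, 92.2, 58.0 and 65.1 CPM in tumor cells, above macrophages in each library, with a log2 fold change 2.12 ± 0.18 (SE), adjusted p = 3.99e-11 by edgeR. P4ha2, a subunit of the collagen prolyl hydroxylase, was at 18.3, 8.89, 16.0 and 48.8 CPM, likewise above, with a log2 fold change 1.37 ± 0.34 (SE), adjusted p = 0.000997 by edgeR. Pgk1 was at 1923, 1056, 1345 and 2943 CPM and rose in 4 of 4 libraries, with a log2 fold change 1.05 ± 0.22 (SE), adjusted p = 0.00011 by edgeR. Slc16a1 was at 18.1, 11.9, 17 and 18.3 CPM, each value above each macrophage value, with a log2 fold change 0.91 ± 0.21 (SE), adjusted p = 0.000403 by edgeR. Hk3 had 6, 0, 0 and 0 UMIs and was nearly absent, so that its fitted fold depends on the prior count. Ndrg1 had 11, 2, 6 and 8 UMIs and Pfkfb4 0, 0, 4 and 2 UMIs. Both lay below macrophages in each library. Hif1a was at 53.3, 53.6, 48.0 and 56.9 CPM, lower in 4 of 4 libraries, with a log2 fold change -3.08 ± 0.16 (SE), adjusted p = 1.39e-15 by edgeR. Adm held 25, 14, 0 and 11 UMIs.

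**Figure D2:**
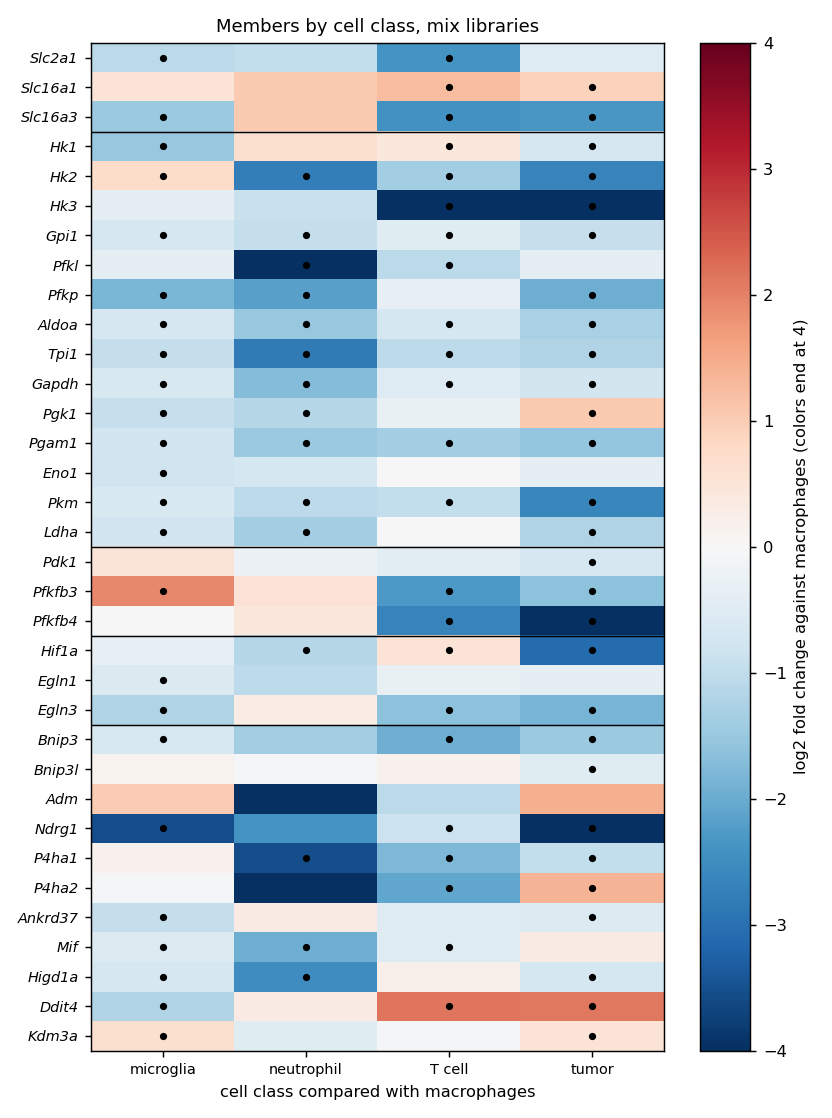
Log2 fold change of each member in a cell class against macrophages, over the 4 mix libraries, with red higher, blue lower and colors ending at 4. A dot marks a call by edgeR. In the tumor column dots lie on both red and blue fields. The blue of Gapdh and Hk1 in the tumor column turns to positive values with DESeq2.

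No member was called between shSELP and shNC in the tumor cells, which carry the shRNA. Of 32 members tested in tumor cells, edgeR called 0, beside 0.252% of 10314 genes, with 4 members and 1685 of all genes at an unadjusted p under 0.05 and 0 members called by DESeq2. Over the members the median log2 fold change was -0.08, and over all genes tested -0.01. It was 0.12 over the 16 carriers and enzymes tested, of which 10 were positive, and -0.29 over the 16 other members, of which 4 were positive. All 4 members at an unadjusted p under 0.05 by edgeR were among these other members. The member median was 0.53 without shNC 1, -0.47 without shNC 2, 0.13 without shSELP 1 and -0.46 without shSELP 2, so its sign turned when shNC 1 or shSELP 1 was left out. The libraries of the groups did not overlap, with shSELP higher, for 1 of 32 members and 27.1% of all genes, and with shSELP lower for 4 members and 21.7% of all genes. With cells thinned to 2000 UMIs edgeR called 0, with no filter on low counts 1 (Ddit4) beside 380 of 17234 genes, and with the replicate number as a block also 1 (Ddit4) beside 274 of 10314 genes, against 26 of 10314 genes without the block. Median depth differed widely, at 14980.5, 15329, 10262 and 3632 UMIs per cell. The median mitochondrial share of a tumor cell was 2.35, 1.93, 1.48 and 0.33%, with both shSELP values below both shNC values and shSELP 2 far lowest. The part of this share in the values was not tested. A deep and a shallow tumor cluster made up 69.0, 66.1, 44.6 and 21.2% and 30.1, 32.2, 42.4 and 67.2% of the gated cells. Handling stress genes summed to 11067, 12611, 8450.2 and 8306 CPM, with Fos the most abundant and 10 of 10 detected in each library. Their part in the values was not tested. With the deep cluster alone, a setting chosen after seeing the data, edgeR called 0, with 3 at an unadjusted p under 0.05.

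Slc2a1 was at 499, 105, 105 and 133 CPM in tumor cells, where shNC 1 stood apart from the 3 other libraries. Slc16a3 was at 97.5, 27.9, 18.0 and 68.1 CPM. For Slc2a1 and Slc16a3 the groups overlapped. Among the enzymes Hk1 was at 27.6, 16.0, 19.99 and 39.7 CPM and Hk2 at 23.8, 16.9, 12 and 20.3 CPM, with Gapdh at 972, 646, 937 and 1651 CPM. For Hk1, Hk2, Gapdh and Pgk1 the groups overlapped. Ldha was at 807, 360.0, 371 and 655 CPM and Pdk1 at 27, 9.78, 5.0 and 8.13 CPM. For Pdk1 both shSELP values lay below both shNC values, and for Ldha the groups overlapped. Egln3 was at 12.4, 8.89, 6.00 and 7.12 CPM, Bnip3 at 109, 26.4, 42 and 59.99 CPM and Mif at 2443, 1537, 1699.8 and 1741 CPM. For Egln3 and Ddit4 both shSELP values lay below both shNC values, and for Bnip3, Mif and Hif1a the groups overlapped. Ddit4 had the lowest unadjusted p of the members, with a log2 fold change -1.06 ± 0.28 (SE), adjusted p = 0.151 by edgeR, and did not pass.

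The CD11b libraries allow the same comparison without replicates, so no test was made. In macrophages, 1 of 33 members was past 1.5-fold higher in shSELP (P4ha1) and 2 past it lower (Eno1 and Ankrd37), beside 11.6% and 5.43% of all genes, and the median ratio was 0.991 over the members and 1.07 over all genes. In microglia, 2 of 31 members were past 1.5-fold higher in shSELP (P4ha1 and Kdm3a) and 8 past it lower (Eno1, Pfkfb3, Pfkfb4, Egln3, Bnip3, Adm, Ndrg1 and Ankrd37), beside 13.3% and 7.93% of all genes, and the median ratio was 0.789 over the members and 1.04 over all genes. Handling stress genes had a median ratio of 0.687 in macrophages and 0.778 in microglia, and their part in these ratios was not tested. With TMM factors the members past the fold numbered 1 higher and 2 lower in macrophages, and 1 and 9 in microglia. Bnip3 in macrophages was at 60.6 and 51.0 CPM in CD11b shNC 1 and shSELP 2, a ratio of 0.841 (95% interval 0.743 to 0.951). Ldha in macrophages was at 505 and 423 CPM, a ratio of 0.837 (95% interval 0.802 to 0.873). Eno1 in microglia was at 18.1 and 8.36 CPM, a ratio of 0.462 (95% interval 0.206 to 0.968). Mif in microglia was at 820.2 and 725 CPM, a ratio of 0.883 (95% interval 0.81 to 0.963). Other members were higher in shSELP. Hif1a was at 156 and 229 CPM in macrophages, a ratio of 1.47 (95% interval 1.37 to 1.57), and at 177 and 242 CPM in microglia, a ratio of 1.37 (95% interval 1.16 to 1.62). Hk1 in macrophages was at 21.3 and 30.6 CPM, a ratio of 1.44 (95% interval 1.20 to 1.73). Ratios were above 1 for 16 of 33 members in macrophages and 7 of 31 in microglia. Of the 8 members past 1.5-fold lower in microglia, the 95% interval held 1 for Adm (0.176 to 1.33), Ndrg1 (0.310 to 1.24) and Ankrd37 (0.228 to 1.22). Such intervals, exact and conditional on the summed counts, cover counting error alone.

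A per-cell score set macrophages above microglia of the mix libraries for glycolysis and hardly for hypoxia. It is the percent of a cell's UMIs, thinned to 2000, that fall in the members of a group. The median glycolysis score was 0.6%, 0.55%, 0.6% and 0.75% in macrophages and 0.3%, 0.45%, 0.2% and 0.25% in microglia. Macrophages were higher in 4 of 4 libraries, by 0.325 on average (SD 0.171, n = 4 libraries). The hypoxia score was 0.15%, 0.15%, 0.15% and 0.2% in macrophages and 0.15%, 0.15%, 0.1% and 0.125% in microglia, higher in 2 of 4 libraries, with a mean difference of 0.0312 (SD 0.0375, n = 4). Without Mif this mean difference was 0, above 0 in 1 of 4 libraries. Not thinned, the hypoxia score was higher in macrophages in 3 of 4 libraries, and without Mif in 4 of 4, by 0.00133 to 0.0214. In CD11b shNC 1 and shSELP 2 the glycolysis score was 0.4% and 0.4% in macrophages and 0.35% and 0.3% in microglia, and the hypoxia score was 0.1% and 0.1% in macrophages and 0.15% and 0.1% in microglia. Not thinned, the hypoxia score was lower in macrophages than in microglia in both. Glycolysis scores of T cells were 0.5%, 0.4%, 0.3% and 0.4% and of tumor cells 0.525%, 0.3%, 0.425% and 0.7%. Thinned, both shSELP values of microglia lay below both shNC values. They overlapped without Gapdh, at 0.2%, 0.35%, 0.2% and 0.225%, and when not thinned, at 0.331%, 0.45%, 0.216% and 0.34%. The thinned groups overlapped in tumor cells and met at 0.4% in T cells and at 0.6% in macrophages.

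**Figure D3:**
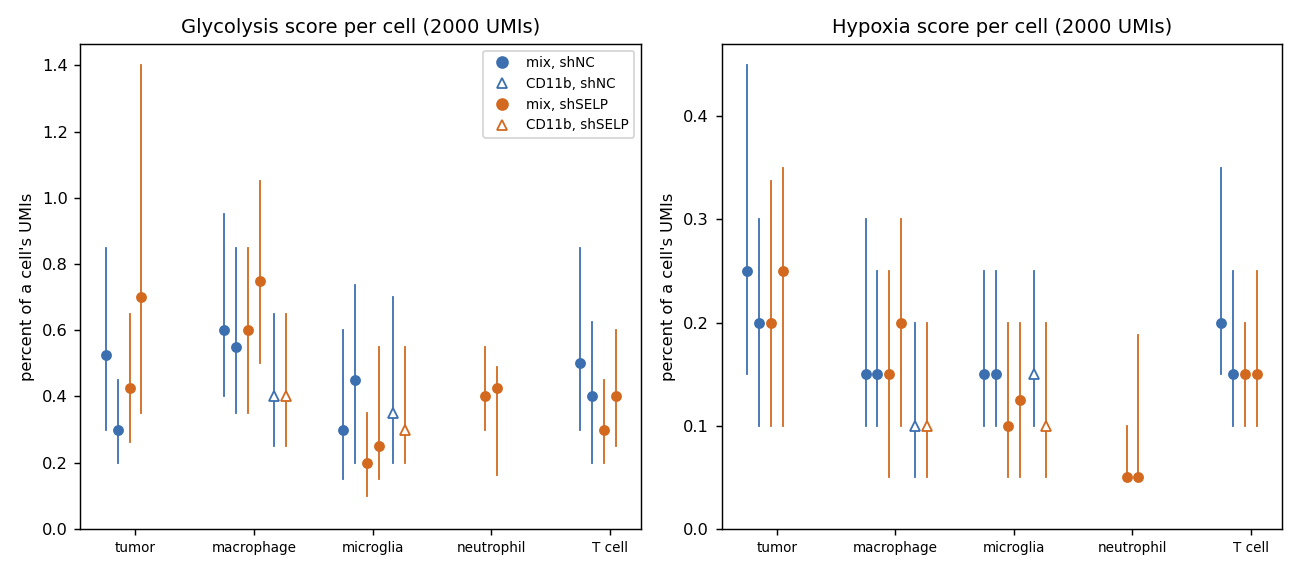
Percent of a cell's UMIs in the glycolysis members (left) and the hypoxia members (right) after thinning to 2000 UMIs, by cell class. Points are medians over cells, and lines run from the lower to the upper quartile. Filled circles are mix libraries and open triangles CD11b libraries, blue shNC and orange shSELP. In the glycolysis panel macrophages lie above microglia of the same library.

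The core letters of the hypoxia response element, the sequence that HIF factors bind, were common in the promoters of the members. The motifs searched were ACGTG and GCGTG on either strand, in the 250 bases before the start of each gene. RefSeq promoters (build GRCm38.p6) were listed for 32 of 34 members, and not for Bnip3l and Ndrg1. Of the 32, 26 first promoters held a motif (81.2%), beside 38.6% of all 32851 promoters, of which 16.6% held ACGTG and 28.2% GCGTG. A match is a stretch of letters and not a shown site of binding. Of Eno1 and Mif, the members called between shSELP and shNC and so chosen after their values were seen, the promoter of Mif held no match. The first of 3 promoters of Eno1 is printed from RefSeq, Eno1 on the plus strand of chr4:150236458-150236707, 5′ to 3′ with the matches to ACGTG or GCGTG on either strand in capitals.
Eno1: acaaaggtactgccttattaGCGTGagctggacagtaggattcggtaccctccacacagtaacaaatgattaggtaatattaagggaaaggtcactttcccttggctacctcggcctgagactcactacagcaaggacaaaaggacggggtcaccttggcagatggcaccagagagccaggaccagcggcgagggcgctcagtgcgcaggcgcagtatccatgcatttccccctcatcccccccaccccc

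These values carry several limits. Each group has 2 mix libraries and 1 CD11b library, so the spread between animals was not measured, and a p above the threshold does not show that values did not differ. Classes come from marker genes alone. The RNA of enzymes and sensors does not give flux, protein or oxygen. Mix libraries were combined at the bench and differ in depth, and the CD11b libraries come from a later day per the labels, so the experiments cannot be compared by level. Neutrophils and scarce members had too few UMIs to compare.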

How the data were processed

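The authors deposited counts, UMIs per gene and cell, which they made with Cell Ranger 1.3 and the mm10 genome. Each column of the deposited tables was matched to a library, and columns of no sample numbered 0. Per the paper's methods the authors removed cells with fewer than 500 genes or over 10% mitochondrial reads and drew equal numbers of cells per group. The deposited tables still held cells of fewer than 500 genes, and these were left out. Classes were set by marker lists, and the scoring rule of this gate was set after seeing the data. A planned division of the macrophages is not reported here, and they were kept as 1 class after the data were seen. The members and lists were chosen with earlier results of these data known. UMIs were summed per library and class and tested across all genes with edgeR 4.0.16 in R 4.3.3, by its quasi-likelihood test with TMM factors after filterByExpr, at 0.05 after the correction of Benjamini and Hochberg, with library as a block between classes. The SE printed with an edgeR log2 fold change is its size divided by the square root of the test's F. It is not an SE taken from the fit itself. The code was tested on simulated data. Values per mix library were given for 15 members whatever they showed, for up to 4 called members with the widest fold in each direction of a comparison, and for each member called between shSELP and shNC, of which there were fewer than 8 in each class. Ratios in the CD11b libraries were taken for genes with at least 20 UMIs. Alternatives were DESeq2 1.42.0, each library left out in turn, library totals, genes not filtered, the replicate number as a block, thinned cells, cells of at least 3000 UMIs, noncycling cells, classes by Seurat 5.3.0 cluster (12 components, resolution 0.8), the highest Scrublet scores left out and, added after seeing the data, the deep tumor cluster alone and the largest microglia cluster alone. Scrublet ran in scanpy 1.11.5 and called 76 mix cells and 1 CD11b cell, so doublets in the CD11b libraries cannot be told apart.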

Additional observations from a re-analysis of the deposited data

Results flagged for a closer look

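For Mif the CPM of T cells over that of macrophages was 1.20, 1.003, 0.794 and 0.648 in shNC 1, shNC 2, shSELP 1 and shSELP 2, and the mean log2 ratio of shSELP less that of shNC was -0.61. For Pgk1 in T cells the ratios were 1.32, 1.12, 0.76 and 0.867 and the difference -0.59. For Gapdh the CPM of tumor cells over that of macrophages was 0.93, 0.698, 1.01 and 1.31, and the difference was 0.51. For Pfkl in tumor cells the ratios were 2.10, 1.12, 0.853 and 0.949 and the difference -0.77. For Pfkfb4 in microglia, on 10, 18, 43 and 21 UMIs, they were 0.9998, 0.794, 1.31 and 1.54 and the difference 0.67. Of the members with more than 3 UMIs in the class in each mix library, these 5 had every shNC library on one side of 1 and every shSELP library on the opposite side. Genes outside the members were not screened by this rule, so no share of all genes can be set beside the 5. The 95% interval of the ratio held 1 for Mif in shNC 2, for Gapdh in shSELP 1, for Pfkl in shNC 2, shSELP 1 and shSELP 2 and for Pfkfb4 in shNC 1, shNC 2, shSELP 1 and shSELP 2. The differences were not tested. Over the 4 libraries, edgeR called Mif and Gapdh lower than in macrophages, with log2 fold changes of -0.50 and -0.73, and its scaling factors are not in these ratios. The other 3 were not called in these contrasts. Mif was not called without shSELP 1 or shSELP 2, and its log2 fold change with 1 library left out lay between -0.69 and -0.39.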

How the results depend on the processing

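With no filter on low counts, the number of members called was 1 for shSELP against shNC in the class tumor, 6 for shSELP against shNC in the class microglia and 1 for shSELP against shNC in the class T cell. With replicate block, the number of members called was 1 for shSELP against shNC in the class tumor and 1 for shSELP against shNC in the class microglia. With library totals with no TMM factors, the number of members called was 1 for shSELP against shNC in the class microglia and 9 for neutrophil against macrophage. With cells thinned to 2000 UMIs, the number of members called was 0 for shSELP against shNC in the class microglia. With cycling cells left out, the number of members called was 1 for shSELP against shNC in the class microglia. With cells of fewer than 3000 UMIs left out, it was 3 in that class, beside 205 of 8319 genes. With classes by most frequent gate of a cluster, the number of members called was 0 for shSELP against shNC in the class microglia. With microglia-gated cells of the largest cluster alone, the number of members called was 0 for shSELP against shNC in the class microglia. With DESeq2, the number of members called was 1 for shSELP against shNC in the class T cell. With 1 library left out, where a lone library is assumed to vary like the other group, the number ran from 1 to 11 for shSELP against shNC in the class microglia and from 0 to 7 for shSELP against shNC in the class T cell. Values that changed sign were 0.0527 for log2 fold change of Gapdh, tumor against macrophage (DESeq2), 0.0736 for log2 fold change of Hk1, tumor against macrophage (DESeq2) and 0.26 for log2 fold change of Pdk1, tumor against macrophage (cells thinned to 2000 UMIs). The cause was not tested.

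Libraries of the same number in both groups were checked for pairing by the correlation across genes, and genes are not independent replicates: -0.0728 in tumor, -0.0445 in macrophage, 0.00737 in microglia, 0.38 in neutrophil and 0.0737 in T cell. With the replicate block edgeR called 1 member in microglia and 1 in tumor cells. Of 681 values of single members, 617 kept their direction and side of the threshold, and 61 kept their direction and lost the call. Neutrophils have no cluster of their own, so classes by cluster gave no value for them. Counts near 0 limit Adm, P4ha2 and most neutrophil values.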
